A study of Mus musculus with 8 samples.

Results

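The genes described here are H2-Aa, H2-Ab1 and H2-Eb1, which encode chains of the mouse major histocompatibility complex (MHC) class II molecules, and Cd74, which encodes the invariant chain. The members were the probe sets that the platform's annotation assigns to these 4 genes: 7 of the 22626 probe sets in the deposited table, 2 for H2-Aa, 3 for H2-Ab1 and 1 each for H2-Eb1 and Cd74. They are 4 of the 12393 genes with a probe set of their own. Each was kept separate. All 7 passed the filter on low signal, a signal of at least 121 in at least 2 of the 8 arrays, as did 13280 probe sets in all.

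Gene expression was measured on Affymetrix arrays in the left ventricle of 2 to 4 month old male mice of the inbred strains C57BL/6 and MRL/MpJ. For each strain 1 array came from an untreated heart and 1 each from hearts taken 3, 30 and 60 days after ligation of the left anterior descending (LAD) coronary artery, which infarcts the ventricle. The comparison hearts were untreated and had no sham operation on their labels, and the number of animals behind each array is not given in the labels. No group therefore had a replicate. The error behind every p-value below comes from how the strain difference varied between time points plus the spread between these 8 arrays. The limma software also draws it toward the error typical of all tested probe sets. This error is not a spread between replicates of a group. Heart muscle genes were bright in every array: the alpha myosin heavy chain gene Myh6 had signals of 12351 to 22531. Over the probe sets that passed the filter, log2 values of the C57BL/6 day 30 array correlated with the other arrays at r of 0.842 to 0.876, against 0.882 to 0.948 for the 21 other pairs of arrays. Values without that array are given beside the class II genes' fitted differences that use it.

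MHC class II molecules are pairs of an alpha and a beta chain that carry peptides from swallowed proteins to the cell surface, where CD4 T cells read them. H2-Aa and H2-Ab1 encode the alpha and beta chain of the I-A molecule, and H2-Eb1 encodes the beta chain of I-E. The invariant chain fills the peptide groove of new class II molecules and guides them to the endosome; cathepsin S then trims it, and H2-DM exchanges the remaining fragment for peptide. Dendritic cells, B cells and macrophages express these genes constantly or on activation, and interferon gamma induces them through the coactivator CIITA. In the infarcted heart, macrophages and dendritic cells that bear class II molecules are part of the immune response to dying muscle. The 3 H2 genes lie next to each other on chromosome 17, and Cd74 lies on another chromosome. The class II chains are among the most variable genes between mouse strains; C57BL/6 carries the b haplotype and MRL/MpJ the k haplotype.

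Class II genes share promoter elements, the X and Y boxes, that bind RFX, CREB and NF-Y proteins. The promoters of H2-Aa and H2-Eb1 are shown because the members moved together across the arrays. They come from RefSeq (GRCm38.p6, the C57BL/6 sequence) and run from 250 bases before to 50 after the start of the gene, 5′ to 3′ on the gene's strand. Of the 4 genes these 2 are printed here. H2-Ab1 had no entry. Cd74, on the other chromosome, was left out although it moved with the H2 genes, so motifs in its promoter are not reported. Capitals mark TGACG (the core of the X2 box) and CCAAT (the Y box) on either strand; a longer X1 box motif with unspecified positions was searched on both strands too.
H2-Aa, chr17:34287774-34288073, minus strand: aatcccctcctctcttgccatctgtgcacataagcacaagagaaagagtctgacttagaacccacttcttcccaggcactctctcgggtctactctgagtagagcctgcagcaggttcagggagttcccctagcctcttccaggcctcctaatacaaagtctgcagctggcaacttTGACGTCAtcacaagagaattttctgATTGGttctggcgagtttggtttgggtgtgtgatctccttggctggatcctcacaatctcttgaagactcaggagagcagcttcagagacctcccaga
H2-Eb1, chr17:34305617-34305916, plus strand: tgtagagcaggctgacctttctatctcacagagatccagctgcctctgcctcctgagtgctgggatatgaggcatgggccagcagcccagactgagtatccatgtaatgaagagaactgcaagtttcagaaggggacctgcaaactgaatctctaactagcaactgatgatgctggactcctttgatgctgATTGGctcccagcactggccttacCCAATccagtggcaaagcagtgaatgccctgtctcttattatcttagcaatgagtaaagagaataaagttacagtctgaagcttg
In H2-Aa, TGACG began 74 bases before the start and overlapped its own reverse complement, so that the capitals read TGACGTCA, and a CCAAT on the opposite strand began 48 bases before the start. H2-Eb1 held CCAAT at 35 bases before the start and again, on the opposite strand, at 59 bases. TGACG was found in 20.8% of the 32851 promoters in the table, CCAAT in 37.4%, both in 7.73%, and the X1 motif in 5.33%. The X1 motif was in neither window and TGACG was not in that of H2-Eb1, which says only that these letters are not there.

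H2-Aa was measured by 1435290_x_at and 1452431_s_at. Signals of 1435290_x_at in C57BL/6 were 1393 untreated, 2857 on day 3, 1750 on day 30 and 1276 on day 60. In MRL/MpJ they were 271.6, 1077, 271.8 and 1095. All 4 C57BL/6 arrays lay above all 4 MRL/MpJ arrays, which was so for 1 of the 7 class II probe sets and for 2.48% of the 13280 probe sets; within MRL/MpJ the untreated and day 30 arrays were low and nearly equal. The second probe set, 1452431_s_at, gave 323.5, 904.5, 261.3 and 282.3 in C57BL/6, in the same order of time points. In MRL/MpJ it gave 99.8, 470.9, 158.4 and 348.9. Here the strains overlapped, since the MRL/MpJ arrays of days 3 and 60 lay above the C57BL/6 arrays of untreated, day 30 and day 60 hearts.

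H2-Ab1, the beta chain of I-A, had 3 probe sets. With 1450648_s_at the C57BL/6 signals were 506.6 untreated, 663.9 on day 3, 413.1 on day 30 and 646.1 on day 60. The MRL/MpJ signals were 149.6, 532.5, 200.2 and 452.1. The MRL/MpJ day 3 array lay above the C57BL/6 untreated and day 30 arrays, and the MRL/MpJ day 60 array above the C57BL/6 day 30 array. The MRL/MpJ untreated and day 30 arrays stood well below the other 6. With 1451721_a_at the values were 348.9, 594, 418 and 387.5 in C57BL/6. They were 162.5, 383.1, 91.2 and 267 in MRL/MpJ, again with untreated and day 30 lowest, and its day 3 array lay above the untreated C57BL/6 array.

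The third H2-Ab1 probe set, 1425477_x_at, was dim. It reached 121 in 3 of the 8 arrays and lay below 28.6, the offset added before the log2 transformation, in 3. Its C57BL/6 signals were 27.5, 316.3, 41.3 and 197.7, and its MRL/MpJ signals were 18.2, 142.2, 9.6 and 93.4. In both strains it was high on days 3 and 60 and near background in untreated and day 30 hearts. It passed the filter only through the arrays in which it is high.

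H2-Eb1, the beta chain of I-E, had C57BL/6 signals of 595.8 untreated, 1430 on day 3, 1089 on day 30 and 848.1 on day 60 on its probe set 1417025_at. The MRL/MpJ signals were 345, 739.7, 321.6 and 609. The lowest C57BL/6 array, the untreated one, lay between the MRL/MpJ arrays, so the strains overlapped. H2-Ea, the partner alpha chain of I-E, which the b haplotype does not transcribe, reached 121 in 0 of the 8 arrays on any of its 3 probe sets, with a highest signal of 105.6. Cd74, on 1425519_a_at, had signals of 963.1, 1749, 1102 and 990.7 in C57BL/6. In MRL/MpJ they were 409.6, 1126, 426.1 and 945.8, so that the day 60 arrays of the strains were nearly equal and the untreated and day 30 arrays were not.

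**Figure D1:**
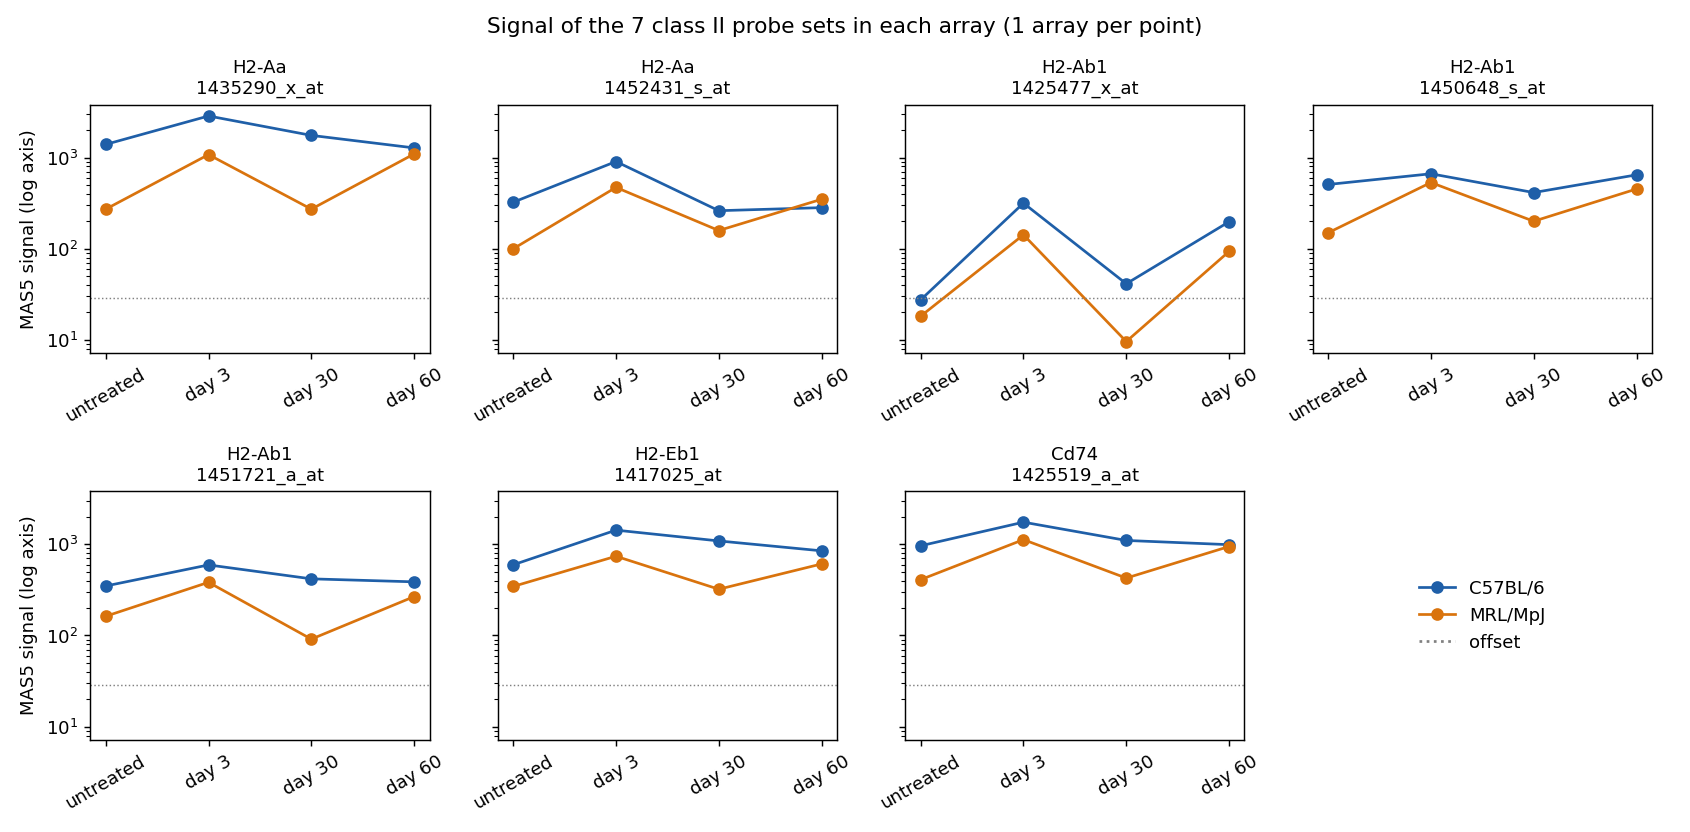
MAS5 signal (log axis) of each class II probe set in untreated hearts and on days 3, 30 and 60 (evenly spaced categories), with 1 array per point, C57BL/6 in blue and MRL/MpJ in orange; the dotted line is the offset of 28.6. The C57BL/6 day 3 array is the highest of the 8 for all 7 probe sets, and the MRL/MpJ untreated and day 30 arrays are the lowest 2.

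The 7 probe sets shared one order of arrays at both ends. The highest signal was in the C57BL/6 day 3 array for 7 of 7, against 8.30% of the 13280 probe sets. The lowest 2 arrays were the untreated and day 30 MRL/MpJ arrays for 7 of 7, against 3.78% of all. The untreated MRL/MpJ array was lowest for 4 and the day 30 one for 3. These counts include 1425477_x_at, which was tested only through its high arrays, C57BL/6 day 3 among them. Across the 8 arrays Pearson's r between log2 values of 2 members was 0.72 to 0.98 with a median of 0.86 over 21 pairs; H2-Aa (1435290_x_at) and Cd74 had the highest. These pairs share the same arrays and the H2 genes share sequence, so r describes them only. Probe sets whose names end in _x_at or _s_at can also bind transcripts of related genes, so values of 1435290_x_at, 1452431_s_at, 1425477_x_at and 1450648_s_at may hold signal from relatives.

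The strain difference asks whether MRL/MpJ hearts held less or more class II RNA than C57BL/6 hearts over all time points. H2-Aa, as MRL/MpJ minus C57BL/6, stood at a log2 of -1.60 (SE 0.37, 4 arrays against 4) on 1435290_x_at and at -0.68 (SE 0.28) on 1452431_s_at. H2-Ab1 stood at -0.99 (SE 0.26) on 1451721_a_at, -0.83 (SE 0.24) on 1450648_s_at and -0.76 (SE 0.19) on 1425477_x_at. H2-Eb1 had a log2 difference of -0.95 (SE 0.23) and Cd74 one of -0.80 (SE 0.24). Without either untreated array 1452431_s_at stood at -0.42. All log2 values are of signal with the offset added, which understates differences of dim probe sets.

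None of these differences passed the threshold. In limma, with Benjamini-Hochberg adjustment over 13280 probe sets, 0 of 7 members had an adjusted p under 0.05, against 0.422% of all probe sets. The lowest adjusted p was 0.222 (1435290_x_at) and the highest 0.541 (1452431_s_at). At an unadjusted p under 0.05 all 7 were lower in MRL/MpJ, against 4.69% of all probe sets lower at that level. These 7 include the dim 1425477_x_at, which passed the filter only through its high arrays. Those were C57BL/6 on days 3 and 60 (316.3 and 197.7) and MRL/MpJ on day 3 (142.2). Its p-value for strain therefore supports nothing, and the count rests on the other 6. MRL/MpJ was below C57BL/6 in 27 of the 28 comparisons of 1 probe set in 1 pair of arrays; the exception was 1452431_s_at on day 60. For 6 of 7 probe sets the direction held in all 4 pairs, against 9.27% of all probe sets. The counts over pairs include 1425477_x_at too. Without the C57BL/6 day 30 array the log2 differences were between -1.28 (H2-Aa, 1435290_x_at) and -0.62 (Cd74).

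The size of the strain difference varied with time. In the untreated pair the members' median log2 was -1.18 (range -2.24 to -0.26), where the median of all probe sets was 0. On day 3 it was -0.90 (-1.38 to -0.30) and on day 30 it was -1.31 (-2.57 to -0.63). In the day 60 pair it was -0.46 (-0.89 to 0.28). For 1435290_x_at of H2-Aa, C57BL/6 signal was 5.13 times that of MRL/MpJ in untreated hearts, 2.65 times on day 3, 6.44 times on day 30 and 1.16 times on day 60. For Cd74 the same ratios were 2.35, 1.55, 2.59 and 1.05. Whether the difference changed between untreated and ligated pairs was tested with an interaction term: 0 of 7 members passed in limma, with an adjusted p of 1.0 for each, against 0% of all probe sets. At an unadjusted p under 0.05 there were 0 of 7, against 2.03% of all. The largest interaction was that of H2-Aa on 1452431_s_at, a log2 of 1.04 (SE 0.58, 95% interval -0.36 to 2.43). Without the C57BL/6 day 30 array the order differed: 1435290_x_at stood highest at 1.44 (0.86 with that array), then 1450648_s_at at 1.19 and 1452431_s_at at 1.14. H2-Eb1 then stood at 0.05 in place of -0.28, 1451721_a_at at 0.44 in place of -0.01 and Cd74 at 0.83 in place of 0.51.

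**Figure D2:**
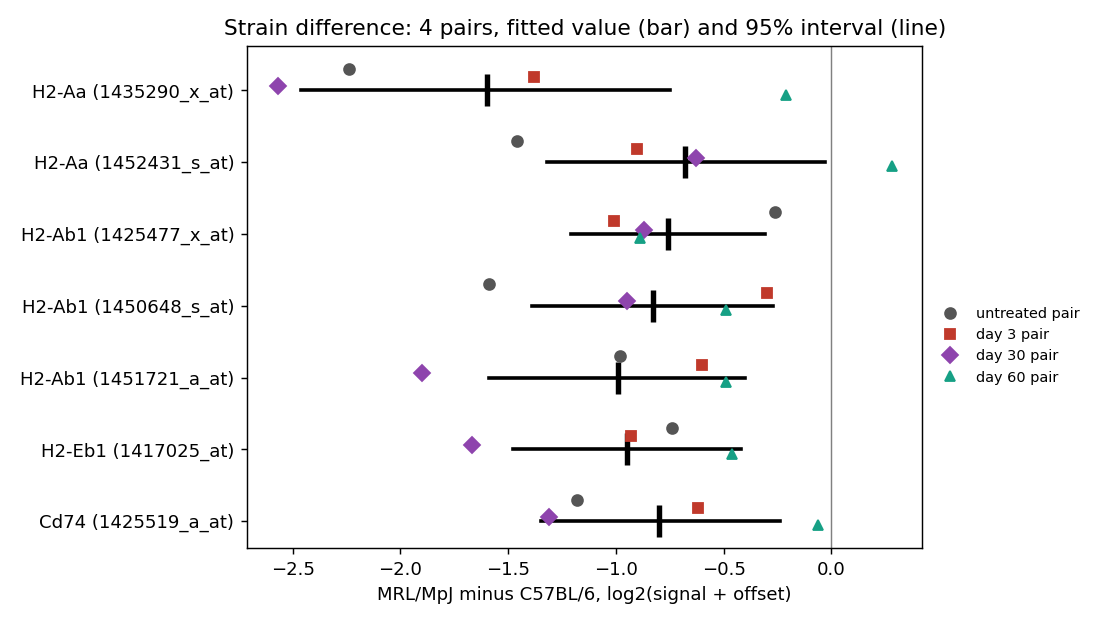
MRL/MpJ minus C57BL/6 on the log2(signal + offset) scale (x axis) for each class II probe set (y axis): symbols are the 4 pairs of arrays, the black bar is the fitted difference and the line its 95% interval. Only the day 60 pair of 1452431_s_at lies above 0, and for H2-Aa on 1435290_x_at the day 60 pair (-0.21) stands apart from the other 3.

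The probe sets of a gene differed in size. For H2-Aa, the log2 difference of 1435290_x_at lay below that of 1452431_s_at in 4 of 4 pairs, by -0.78 in untreated hearts, -0.48 on day 3, -1.94 on day 30 and -0.49 on day 60, where the values were -0.21 and 0.28 and so opposite in sign. Short probes designed on 1 strain's sequence can bind another strain's allele less well. The part of such mismatch in the differences of the H2 genes was not tested, since probe sequences were not used here. Cd74, which lies outside the MHC, stood at -0.80, and whether its probes match both strains was not tested either. In whole ventricle, fewer class II positive cells and less class II RNA per cell cannot be told apart.

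Day 3 against untreated asks what happened in the early infarct, over both strains. All 7 probe sets lay above untreated in both strains, 14 of 14 comparisons. H2-Aa stood at a log2 of 1.68 (SE 0.39, 2 arrays against 2) on 1452431_s_at and 1.45 (SE 0.52) on 1435290_x_at. H2-Ab1 stood at 2.24 (SE 0.27) on the dim 1425477_x_at, 1.01 (SE 0.34) on 1450648_s_at and 0.91 (SE 0.36) on 1451721_a_at. H2-Eb1 had a log2 of 1.13 (SE 0.32) and Cd74 one of 1.12 (SE 0.34).

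In limma 0 of 7 passed after adjustment, against 0.0151% of all probe sets. The adjusted p was 0.336 to 0.730 for 6 of them. It was 0.0620 for 1425477_x_at, which had to be high on day 3 or 60 to be tested at all, so its p-values in comparisons with those days support nothing. The other 6 all had an unadjusted p under 0.05 and were higher, against 4.30% of all. Without the MRL/MpJ untreated array 1450648_s_at stood at 0.51, without the MRL/MpJ day 3 array at 0.66 and without the C57BL/6 untreated array at 1.52. Within C57BL/6 the day 3 change was past 2-fold for 4 of 7 probe sets, against 2.57% of all higher by that much, with a median log2 of 1.02. In MRL/MpJ it was past 2-fold for 7 of 7, against 4.89% of all, with a median of 1.65. Both counts include 1425477_x_at, which passed the filter through its high arrays. The MRL/MpJ change was the larger for 5 probe sets, while those of H2-Eb1 (1.04 against 1.22) and 1425477_x_at (1.87 against 2.62) were larger in C57BL/6. This difference between strains on day 3 was not tested on its own.

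By day 30 the signals were back near those of untreated hearts. The log2 values against untreated lay between -0.22 (SE 0.36, H2-Ab1, 1451721_a_at) and 0.37 (SE 0.32, H2-Eb1). With limma 0 of 7 passed, with adjusted p of 0.666 to 0.990 against 0.00753% of all probe sets called, and 0 of 7 had an unadjusted p under 0.05, against 11.2% of all. Past 2-fold there were 0 of 7 higher in either strain, against 7.80% of all in C57BL/6 and 3.27% in MRL/MpJ. In C57BL/6 H2-Eb1 stood highest, at 0.84. Direction on day 30 depended on single arrays: without the C57BL/6 day 30 array 5 of the 6 positive values turned negative, down to -0.48 for H2-Aa on 1435290_x_at.

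Day 30 lay below day 3 for all 7 probe sets in both strains, by a log2 of -2.23 (SE 0.27, H2-Ab1, 1425477_x_at) to -0.76 (SE 0.32, H2-Eb1). H2-Aa stood at -1.55 (SE 0.39) on 1452431_s_at and -1.29 (SE 0.52) on 1435290_x_at, and Cd74 at -1.0 (SE 0.34). With limma 0 of 7 passed, as did 0% of all, and adjusted p was 0.314 for 1425477_x_at, tested through its high arrays, and 0.706 to 0.831 for the others. Those 6 all had an unadjusted p under 0.05, against 3.73% of all probe sets lower at that level. Without the C57BL/6 day 30 array 7 of 7 lay below 0 too, between -2.31 and -1.05. Without the MRL/MpJ day 30 array H2-Eb1 stood at -0.28, 1451721_a_at at -0.53 and both 1435290_x_at and Cd74 at -0.65.

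Day 60 separated the strains' time courses. In MRL/MpJ all 7 probe sets lay above untreated on day 60, 5 of them past 2-fold against 4.81% of all, with a median log2 of 1.38. That median and 1 of the 5 belong to 1425477_x_at, which passed the filter through its high arrays. H2-Aa stood 3.74-fold above untreated on 1435290_x_at and 2.94-fold on 1452431_s_at, H2-Ab1 2.70-fold on 1450648_s_at and Cd74 2.22-fold, as ratios with the offset added. In C57BL/6 1 of 7 was past 2-fold, the dim 1425477_x_at (4.03-fold), against 4.11% of all, and the median was 0.14. There H2-Aa stood at a log2 of -0.12 and -0.18 and Cd74 at 0.04. Each of these within-strain values is 1 array against 1, and the difference between the strains on day 60 was not tested on its own.

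**Figure D3:**
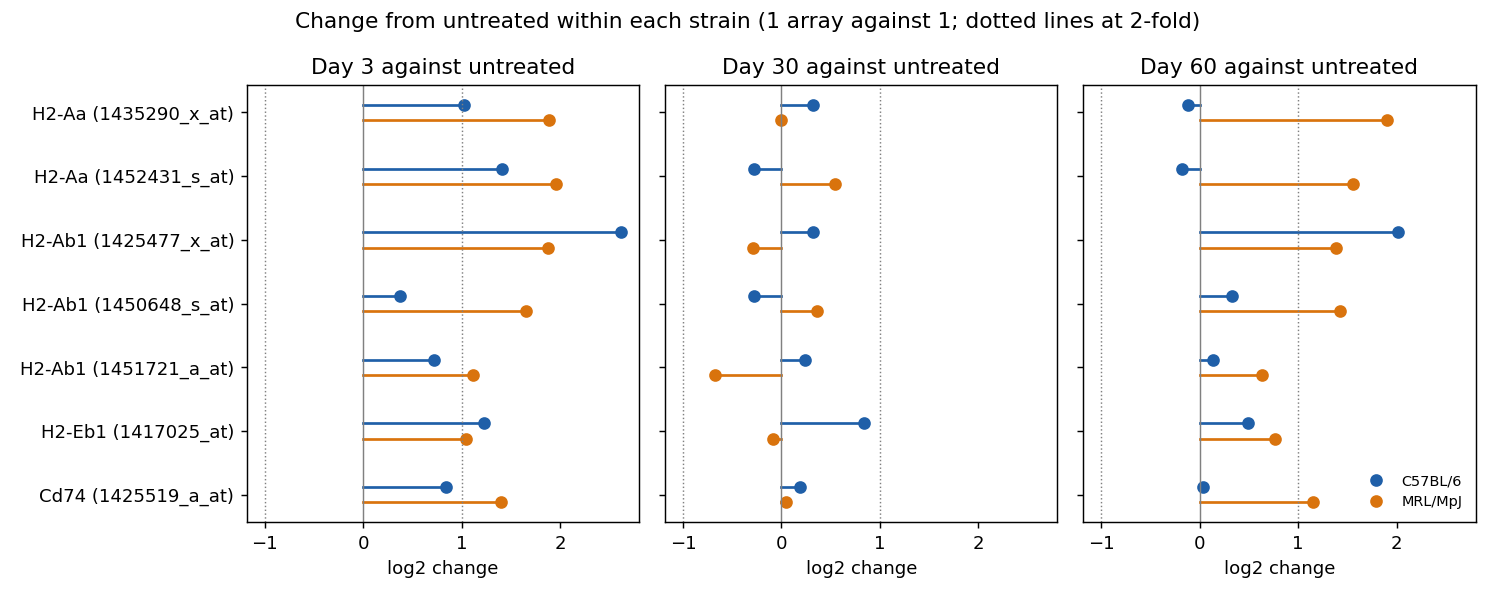
Log2 change (x axis) from the untreated array of the same strain on days 3, 30 and 60, for each class II probe set (y axis), C57BL/6 in blue and MRL/MpJ in orange, 1 array against 1; dotted lines mark 2-fold. All values lie above 0 on day 3; on day 60 MRL/MpJ values run from 0.63 to 1.90 while 6 of the 7 C57BL/6 values lie between -0.18 and 0.49.

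Over both strains, the day 60 log2 values were 1.70 (SE 0.27) for 1425477_x_at and 0.88 (SE 0.34) for 1450648_s_at of H2-Ab1, and 0.38 to 0.89 for the other 5. In limma 0 of 7 passed, against 0.136% of all, with adjusted p of 0.0867 for 1425477_x_at and 0.441 to 0.760 for the others; both probe sets of H2-Ab1 named here had an unadjusted p under 0.05 and were higher, 1 of them through the filter, against 6.55% of all. These values rested on single arrays. Without the MRL/MpJ day 60 array they were -0.04 for 1435290_x_at, 0.05 for 1452431_s_at and 1451721_a_at, 0.11 for Cd74 and 0.30 for H2-Eb1. Without the C57BL/6 day 60 array the same values were 1.81, 1.33, 0.72, 1.08 and 0.96. Without the MRL/MpJ untreated array 1450648_s_at stood at 0.38. Day 60 against day 30 gave 0.26 (H2-Eb1) to 1.69 (1425477_x_at). Again 0 of 7 passed the threshold in limma, against 0% of all, with adjusted p of 0.338 to 0.811. At an unadjusted p under 0.05 there were 2 of 7, against 4.33% of all higher at that level. The value of 0.338 and 1 of these 2 belong to 1425477_x_at, tested through its high arrays. Without the C57BL/6 day 30 array the log2 values of day 60 against day 30 ran from 0.53 (1452431_s_at) to 1.76 (1425477_x_at). H2-Eb1 then stood at 0.74, 1451721_a_at at 1.20 and 1435290_x_at at 1.37. Taking the 3 days together, the ligated arrays stood above untreated by a log2 of 0.36 (SE 0.30, 1451721_a_at) to 1.32 (SE 0.22, 1425477_x_at). With limma 0 of 7 passed, against 0.211% of all, and adjusted p was 0.0801 to 0.714. At an unadjusted p under 0.05 there were 4 of 7 higher, against 6.28% of all. The value of 0.0801 and 1 of these 4 belong to 1425477_x_at, tested through its high arrays. Without the C57BL/6 day 30 array 1451721_a_at stood at 0.16 and the other 6 between 0.50 and 1.29. Without the MRL/MpJ untreated array 1450648_s_at stood at 0.14, 1452431_s_at at 0.32, Cd74 at 0.36 and 1435290_x_at at 0.41. These contrasts against untreated share the same 2 untreated arrays.

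Other genes of the class II pathway were taken from lists. Of 7 listed accessory chains 4 were measured under their own symbol and 3 tested, and 0 were called in any comparison. H2-DMa, a chain of the peptide exchange factor, had signals of 98.7 to 205.7 and stood at a log2 of -0.28 for strain and 0.19 on day 3. H2-DMb2, the partner beta chain (49.7 to 150.7), and H2-Oa, a chain of the inhibitor of H2-DM (17.2 to 156.3), stood at -0.42 and -0.51 for strain and 0.13 and 0.51 on day 3. The list's median was -0.42 for strain and 0.19 on day 3, where all probe sets had -0.01 and 0.01. The SE of the strain value was 0.23 for H2-DMa, 0.28 for H2-DMb2 and 0.41 for H2-Oa. The pairs were not alike. The summed signal of the 4 measured chains was lower in MRL/MpJ in untreated hearts (253.4 against 466.2) and on day 30 (237.7 against 618.3). It was higher there on day 3 (522.0 against 436.5) and day 60 (323.4 against 263.9).

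Of 17 genes for class II transcription and interferon gamma input, 16 were measured and 13 tested, with 0 called in any comparison. Ciita, the class II coactivator gene, was dim with signals of 51.3 to 215.9, and stood at a log2 of -0.25 for strain and 0.36 on day 3. That strain value rests on the day 30 pair, with 51.3 in MRL/MpJ against 215.9 in C57BL/6. MRL/MpJ was the higher in untreated hearts (98.5 against 96.0), on day 3 (150.7 against 116.3) and on day 60 (90.2 against 70.7). Ifng, interferon gamma itself, stayed between 23.7 and 87.8 and was not tested. Irf8 and Spi1, transcription factor genes of myeloid cells, stood at 0.59 and 0.55 on day 3. Irf1, an interferon regulatory factor, and Jak1, a kinase of the interferon receptor, had the brightest probe sets of the list and stood at 0.25 and -0.37. The medians were -0.08 for strain and 0.13 on day 3.

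Over all time points together, the genes that process class II cargo did not share the strain difference in sign, but the pairs were not alike. Of 12 listed, 10 were measured and tested and 0 called in any comparison; 9 of 10 stood above 0 for strain, against 48.4% of all probe sets, with a median log2 of 0.11. The summed signal of the 10 was lower in MRL/MpJ in untreated hearts (14868.5 against 15729 in C57BL/6). It was higher on day 3 (21376 against 17118), day 30 (20393 against 18658) and day 60 (22709 against 19606). Their strain by ligation value was above 0 for 10 of 10, against 49.0% of all probe sets, with a median log2 of 0.27. Ctss, the cathepsin S gene, stood at 1.84 on day 3 (adjusted p = 0.232 in limma) and at 0.03 (SE 0.26) for strain. Ctsz and Lgmn, genes of further lysosomal proteases, stood at 1.05 and 0.80 on day 3, and Cst3, an inhibitor of cathepsins and the brightest of the list, at 0.58. Ctsb, the cathepsin B gene, stood at 0.23. The medians were 0.32 on day 3, 0.46 on day 30 and 0.65 on day 60, where all probe sets had 0.01, -0.02 and -0.05. On day 30, when the class II genes stood near untreated, 8 of the 10 lay above it, against 48.5% of all probe sets, with Ctss at 1.12.

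Genes induced by interferon gamma (22 listed, 18 measured, 14 tested) had 0 called in any comparison. For strain 10 of 14 lay below 0 with a median log2 of -0.34, where 48.4% of all probe sets lay above 0; Igtp and Iigp1, genes of interferon-inducible GTPases, stood at -0.87 and -0.86. B2m, the light chain of class I molecules and the brightest of the list, stood at -0.51, and Psme1, a proteasome activator gene and next in brightness, at -0.12. On day 3 the median was 0.23, with Irgm1, another GTPase gene, at 0.86. Among partners of CD74, Mif, a cytokine that binds CD74 at the surface, stood at 0.19 for strain and 0.21 on day 3, and Cd44, its coreceptor, at 0.31 and 0.62. Ddt, a relative of MIF, stood at -0.30 and -0.28, and 0 of 3 tested of 5 measured genes were called. Costimulation genes had 5 of 11 measured tested and 0 called. Cd86, a ligand of CD28, stood at -0.45 for strain and 0.29 on day 3, and Icosl, the ligand of ICOS and the brightest of the list, at -0.20 and -0.89.

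Markers of the cells that carry class II were set beside these values. Of 19 macrophage and monocyte markers 18 were measured and 14 tested. Their summed signal ranged from 8282 to 11886 over the C57BL/6 arrays, and over the MRL/MpJ arrays from 5531 to 14026. All 14 stood above untreated on days 3, 30 and 60, with median log2 of 0.95, 0.80 and 0.70, where 51.3%, 48.5% and 45.0% of all probe sets lay above 0. Their strain median was -0.08 with 5 above 0 and 9 below, and 0 were called. That median covers unlike pairs. The sum was lower in MRL/MpJ in untreated hearts (5531 against 8282) and on day 30 (10530 against 11720). It was higher on day 3 (14026 against 11886) and day 60 (12374 against 10850). The strain by ligation value was above 0 for 14 of 14, against 49.0% of all probe sets, with a median of 0.38. Pan leukocyte markers (10 measured, 9 tested) summed to 1362 to 2446 (C57BL/6) and 1128 to 2356 (MRL/MpJ), with medians of 0.71 on day 3, 0.71 on day 30 and 0.83 on day 60, and 0.07 for strain. None of these measured markers was below the offset in every array. Ptprc, the CD45 gene, had signals of 73.4 to 291.2.

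Dendritic cell markers were dim: of 11 listed, 9 were measured and 6 tested, with sums of 770.2 to 1466 (C57BL/6) and 610.7 to 1110 (MRL/MpJ). For strain 6 of 6 lay below 0, where 48.4% of all probe sets lay above it, with a median log2 of -0.23, and on day 3 the median was 0.25. The list's mean log2 in C57BL/6 was 7.09, 7.17, 7.87 and 7.23 (untreated, days 3, 30 and 60). In MRL/MpJ it was 7.11, 7.43, 7.05 and 6.77, so it lay above C57BL/6 in the untreated and day 3 pairs. The gap was widest on day 30, in the pair with the C57BL/6 array that correlated least with the others. B cell and plasma cell markers (8 measured, 6 tested) summed to 827.8 to 6252 (C57BL/6) and 729.2 to 2082 (MRL/MpJ), with Pax5 below the offset in every array. Jchain, the joining chain of secreted antibody, was called higher on day 60 (log2 3.10, adjusted p = 0.0199 in limma) and Ighm, the heavy chain of IgM, stood at 3.42 (adjusted p = 0.0867 in limma). T and NK cell markers had 1 of 12 measured tested, Thy1; Cd3d and Cd2 were below the offset in every array, as was Cd4.

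Markers of the ventricle's other cells were read the same way. Fibroblast markers (8 measured and tested) summed to 9003 to 27729 (C57BL/6) and 9415 to 55849 (MRL/MpJ). All 8 stood above untreated on days 3, 30 and 60, with median log2 of 2.02, 1.29 and 1.37, and above 0 for strain, with a median of 0.40. In the ligated arrays 3 were called higher in limma, the collagen genes Col1a1 (log2 2.37, SE 0.28, adjusted p = 0.0377), Col1a2 (2.36, SE 0.26, adjusted p = 0.0359) and Col3a1 (1.87, SE 0.21, adjusted p = 0.0375). Endothelial markers (8 tested, 0 called) summed to 3709 to 5439 (C57BL/6) and 3839 to 4711 (MRL/MpJ), and 8 of 8 lay below 0 on day 3, with a median of -0.20. Cardiomyocyte markers (9 tested, 0 called) summed to 168131 to 323022 (C57BL/6) and 162702 to 228871 (MRL/MpJ), with medians of 0.10 on day 3 and -0.04 for strain. None of these markers was below the offset in every array. The part of these cell types in the class II values was not tested.

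The class II genes were then set beside the marker lists array by array. The mean log2 of the 4 genes, each by its brightest probe set, was 9.69, 10.56, 9.96 and 9.88 in C57BL/6 (untreated, days 3, 30 and 60). In MRL/MpJ it was 8.26, 9.75, 8.34 and 9.57. The macrophage list's mean was 8.74, 9.32, 9.27 and 9.16 in C57BL/6 and 8.23, 9.52, 9.14 and 9.24 in MRL/MpJ. The class II mean minus the macrophage mean was 0.70 to 1.24 in the C57BL/6 arrays and -0.80 to 0.34 in the MRL/MpJ arrays, with no overlap. Only differences of this gap between arrays can be read, because probe sets differ in brightness. Against the pan leukocyte list the gap was 1.93 to 2.58 (C57BL/6) and 0.35 to 1.67 (MRL/MpJ), also without overlap. The strain medians of the macrophage and pan leukocyte lists were -0.08 and 0.07, so these gaps largely repeat the class II strain difference. How often other genes would separate the strains in this way was not tested. Against the dendritic cell list (2.09 to 3.39 and 1.14 to 2.81) and the B cell list (1.42 to 2.96 and 1.17 to 2.12) the strains overlapped. The gap to the macrophage list was smallest in the MRL/MpJ day 30 array, where macrophage markers stood at 9.14 against 8.23 in untreated MRL/MpJ hearts while the class II mean stood at 8.34 against 8.26.

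**Figure D4:**
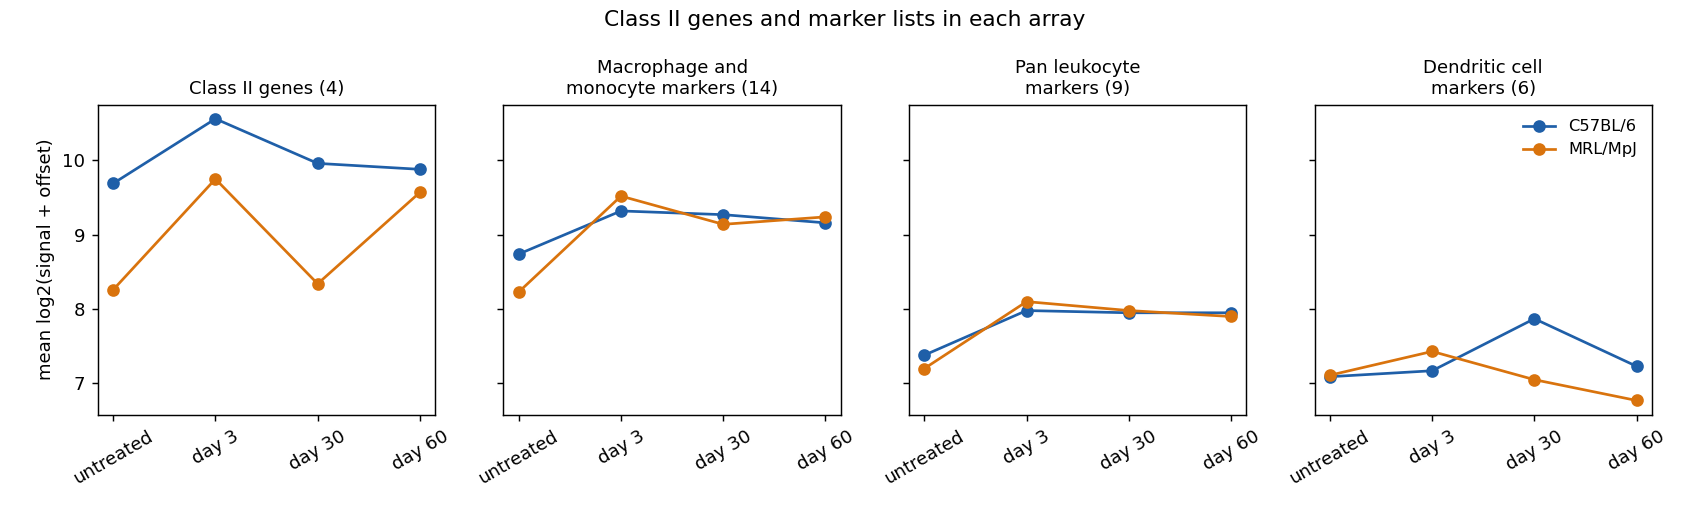
Mean log2(signal + offset) (y axis) of the 4 class II genes and of 3 marker lists in each array, C57BL/6 in blue and MRL/MpJ in orange, with the number of genes in each title. For the class II genes MRL/MpJ lies below C57BL/6 at each time point, widely in untreated hearts (8.26 against 9.69) and narrowly on day 60 (9.57 against 9.88); macrophage markers differ in untreated hearts (8.23 against 8.74) and lie closer after ligation, and on day 30 in MRL/MpJ class II stands at 8.34 and macrophage markers at 9.14.

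The profiles most like the class II mean over the 8 arrays were found among 12176 probe sets with a single gene symbol. The 10 genes with the highest Pearson's r on log2 values were Tubgcp2 and Csf1r (both 0.95), Eln (0.94), Ap3m1, Lnx1 and Prpf38b (0.93), and Tpd52, Pld4, Ube2j1 and Rbms1 (0.92). For comparison, the 99th percentile over all searched was 0.81 and the median 0.02. Eln, the elastin gene, had these signals in the same order of time points: 191.2, 945.5, 482 and 234.9 in C57BL/6 and 46.6, 602.6, 38.6 and 220.5 in MRL/MpJ. Csf1r, the receptor of the macrophage growth factor CSF1, reached 0.95 on 1423593_a_at, whereas its other probe sets, one of them brighter, had r of 0.71 and 0.75. With 8 points, picked from many probe sets, these correlations are descriptions.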

How the data were processed

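The members and gene lists were chosen with earlier results of these data known. The authors deposited linear signal intensity, 1 array per group. MAS5 made it, per the submitters' processing notes; its version is not given in the sources used here. The authors had scaled each array as a whole: the mean after trimming 2% at each end lay between 247.1 and 248.3. Detection calls and scanner files were not used here.

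The platform annotation gave 1 symbol for 20380 probe sets, several for 691 and none for 1555. Of 162 genes on the other lists, 146 were found; each stood for by its brightest probe set on the log2 scale. Before log2, 28.6 was added to each signal (the offset, at the 20th percentile of the table), and no further normalization was applied. Probe sets with at least 121 (the table's median) in 2 or more arrays were tested: 13280, members each as its own row.

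Tests were two-sided and used limma 3.58.1 in R 4.3.3 (lmFit, eBayes) with strain and time point as additive terms over all 8 arrays, which leaves 3 residual degrees of freedom; the interaction with ligation left 2. Calls were made at a Benjamini-Hochberg adjusted p under 0.05. Within a strain, 1 array against 1 was counted at a 2-fold limit, with no test. Named were all member probe sets, called list genes, the brightest and most changed genes of the lists, and the 10 genes most like the class II mean. Alternatives were the offset, filter, scaling, 1 probe set per gene, an intensity trend, dropped terms and each array left out. The small number of arrays limits the precision.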

Additional observations from a re-analysis of the deposited data

How the results depend on the processing

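No member passed in any alternative. For strain, day 3, all ligated arrays against untreated and day 30 against day 3, each value kept its direction in all alternatives run, with adjusted p in limma of 0.0837 to 0.887, 0.0698 to 1.0, 0.0606 to 1.0 and 0.0629 to 1.0. The lowest adjusted p for day 3, all ligated arrays and day 30 against day 3 was that of 1425477_x_at, tested through its high arrays. On day 30, 14 of 115 values changed sign: for H2-Ab1 on 1425477_x_at the log2 was -0.04 with an offset of 10, -0.04 with quantile normalization and -0.03 with arrays centred on the median. The interaction for 1451721_a_at was 0.02 with arrays centred. The cause was not tested.

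Leaving out each array in turn, the day 30 log2 ranged from -0.11 to 0.86 for H2-Eb1, -0.32 to 0.34 for 1425477_x_at, -0.46 to 0.54 for 1450648_s_at, -0.82 to 0.39 for 1451721_a_at, -0.48 to 0.80 for 1435290_x_at, -0.39 to 0.65 for 1452431_s_at and -0.22 to 0.47 for Cd74. Day 60 ranged from -0.04 to 1.81 for 1435290_x_at, 0.05 to 1.33 for 1452431_s_at, 0.38 to 1.39 for 1450648_s_at, 0.05 to 0.72 for 1451721_a_at and 0.11 to 1.08 for Cd74. All ligated arrays against untreated ranged from 0.14 to 1.15 for 1450648_s_at and 0.32 to 1.35 for 1452431_s_at. Day 60 against day 30 ranged from -0.23 to 0.74 for H2-Eb1, 0 to 1.20 for 1451721_a_at, -0.20 to 1.65 for 1435290_x_at, -0.08 to 1.20 for 1452431_s_at and -0.01 to 0.96 for Cd74. The interaction ranged from -0.56 to 0.05 for H2-Eb1 and -0.27 to 0.44 for 1451721_a_at; it could not be fitted without an untreated array. Changes past 2-fold within a strain numbered 17 of 42 with the offset and without it.

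The counts over all probe sets moved with the settings: for strain 56 as reported, 15 without the filter and 14 without either untreated array; for day 30, 376 without the MRL/MpJ day 30 array against 1. With an intensity trend they were 22 against 2 on day 3, 93 against 18 on day 60 and 132 against 28 for ligated arrays. The labels give no replicate numbers, so no replicate block could be fitted; the strain comparison was paired by time point. Values of the near-background 1425477_x_at depend on the offset: its day 3 log2 was 1.37 with an offset of 100 and 2.78 with an offset of 10.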
